A study of Mus musculus with 24 samples.

Results

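The genes described here make and use microRNAs: Dgcr8 and Drosha, Dicer1, the argonaute genes Ago1, Ago2 and Ago3, the GW182 genes Tnrc6a, Tnrc6b and Tnrc6c, and Mir17hg, the host transcript of a microRNA cluster. They are 10 of the 55450 genes of the GENCODE vM21 annotation, taken by name, and every listed peak that lay over their gene bodies on the same strand was used. Of 29007 peaks listed in all, 44 met that rule, and no peak lay over any of the 10 genes on the opposite strand. The names were selected on the pathway with the peak ranks and days of these lists (the authors' p-values) in view, so the presence of a member in a list and its rank are given as a description, with no test.

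The lists come from RNA immunoprecipitation (RIP) followed by sequencing, in which an antibody to STAU2 pulls down the protein from a lysate of mouse cortex with the RNA attached to it. The groups were the STAU2 RIP and the input lysate at embryonic day 11.5 (E11.5) and at E13.5, E15.5 or E17.5, with 3 libraries in each of the 8 groups and 24 in all. Every library came from whole cortex, and each biological replicate was made from the pooled cortices of 1 litter. The labels name no genotype, strain or treatment. A RIP with a T7 antibody served as a control in a few qPCR assays and was not analysed here. The authors deposited 1 list for each day and strand, so the 6 libraries of a day stand behind a pair of lists and no replicate has a value of its own. Neither the spread between replicates nor the depth of the libraries is known, and the sources used here do not say whether a listed peak means that the RIP held more of the RNA than the input did. In whole tissue, fewer cells that hold a transcript and less of it per cell cannot be told apart. Among 14 genes of cortical progenitors and neurons, 10 had an exonic peak on at least 1 day, beside 30.1% of all protein-coding genes and 41.4% of those with at least 4000 exonic bases. Lhx2, which encodes a transcription factor of the forebrain, had one on all 4 days, Emx1 held rank 178 at E15.5 and Eomes rank 39 at E13.5 (by a peak with its midpoint in an intron), while Sox2, Bcl11b and Tubb3 were among those with none. These 14 genes were chosen with earlier results of these data known, so nothing is read from the distance between their count and these shares. A peak list gives no expression level, so the count does not check the tissue.

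MicroRNAs begin as hairpins in long primary transcripts. In the nucleus the Microprocessor, made of the nuclease DROSHA and the double-stranded RNA-binding protein DGCR8, cuts the hairpin out. DICER1 then trims it in the cytoplasm, and an argonaute protein keeps 1 strand and is led by it to messenger RNAs, mostly to sites in the 3' UTR. GW182 proteins, encoded by the Tnrc6 genes, bind argonaute and recruit the enzymes that shorten the poly(A) tail and block translation. STAU2 itself binds double-stranded stretches of RNA and helps to move and stabilise messenger RNAs in neurons and in the progenitors that give rise to them. MicroRNA processing is needed for progenitors and neurons of the cortex to survive and mature.

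Of the 10 genes, 8 had at least 1 peak. Dgcr8 had 12 peaks, Ago2 had 9, Drosha had 7, Tnrc6a had 6, Dicer1 had 5, Ago3 and Tnrc6c had 2 each and Mir17hg had 1. Ago1 and Tnrc6b had none on any day. Dgcr8 was the only member with an exonic peak on all 4 days, where an exonic peak is one that shares at least 1 base with an exon. The rank of a peak is its place when all peaks of a day, over both strands, are ordered by the authors' p, with rank 1 for the lowest. Lists of unlike length give unlike ranks, so a rank describes a peak within its day and not a change between days. The member ranked highest on its day was Mir17hg at E11.5 (rank 18 of 6530), followed by Ago2 at E11.5 (rank 78) and by Dgcr8, which held rank 179 at E11.5 (by a mostly intronic peak), 275 of 5871 at E13.5 and 332 of 10265 at E15.5. At E17.5 the highest-ranked exonic peak of any member was again in Dgcr8, at rank 1079 of 6341.

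**Figure D1:**
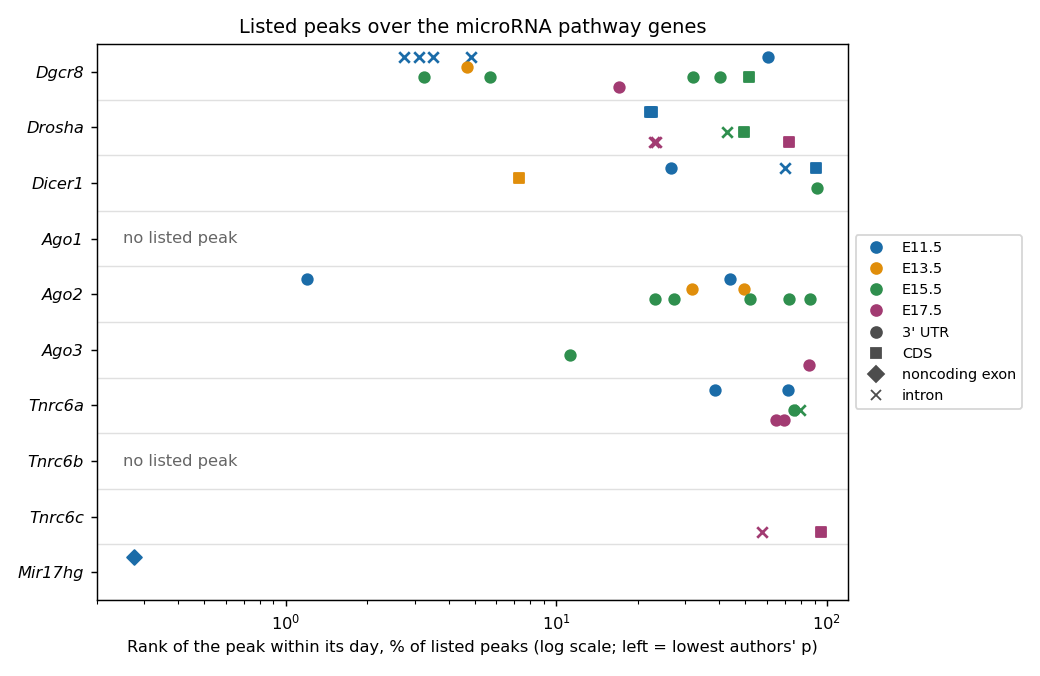
Every listed peak of the 10 genes (rows), placed by its rank within its day as a percent of that day's peaks on a log axis (left is the lowest authors' p), with colour for the day and the symbol for the transcript part at the peak's midpoint. The Mir17hg peak lies farthest to the left, Dgcr8 has peaks of all 4 days left of 20%, and the peaks of Tnrc6a and Tnrc6c lie right of 38%.

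By day, exonic peaks were found in 5 of the 9 protein-coding members at E11.5 (Dgcr8, Drosha, Dicer1, Ago2 and Tnrc6a), where 9.09% of all protein-coding genes and 13.2% of those with at least 4000 exonic bases had one. All 9 have more than 4000 exonic bases, the fewest being 5935 in Drosha. At E13.5 there were 3 (Dgcr8, Dicer1 and Ago2), beside 11.8% and 16% of genes. At E15.5 there were 6 (Dgcr8, Drosha, Dicer1, Ago2, Ago3 and Tnrc6a), beside 19.9% and 27.6%. At E17.5 there were 5 (Dgcr8, Drosha, Ago3, Tnrc6a and Tnrc6c), beside 13.6% and 18%. A peak on all 4 days was seen in 1.77% of protein-coding genes and in 2.48% of the long ones, and no exonic peak on any day, as in Ago1 and Tnrc6b, in 69.9% and 58.6%. Because the members were picked with these lists known, nothing is read from the distance between their counts and these shares. Mir17hg is a long noncoding RNA, and 0.522% of 10155 such genes had an exonic peak at E11.5.

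The days differed in how many peaks lay over the gene bodies and in where these stood in the list. E11.5 had 15 of them, E13.5 had 4, E15.5 had 16 and E17.5 had 9. Of the 44, 27 stood in the stronger 50% of their day's list, of which E11.5 gave 11, E13.5 gave 4, E15.5 gave 9 and E17.5 gave 3. As a percent of the list, the median rank of E11.5 was 22.6%, that of E13.5 19.5%, that of E15.5 46.0% and that of E17.5 64.7%. The 4 peaks of E13.5 thus all lay in the stronger part of a short list, and the peaks of E17.5 mostly in the weaker part. With no replicate values these differences between days were not tested.

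Most peaks were short and lay in 3' UTRs. By the peak's midpoint, 25 lay in a 3' UTR, 8 in coding sequence, 1 in a noncoding exon and 10 in an intron, and no midpoint lay in a 5' UTR. The median width was 65.5 bases, from 48 to 11011. Of the 39 peaks that touched an exon, 64.1% had their midpoint in a 3' UTR (25 of 39, exact Clopper-Pearson 95% interval 47.2% to 78.8%, counting error of peaks only). The interval treats the peaks as independent, which they were not. Of the 39, 15 shared bases with a peak of another day, and of the 25, 9 lay in Ago2 and 7 in Dgcr8. Among 18875 exonic peaks of other protein-coding genes, with the part also read at the midpoint, the share was 52.2%. The 39 include the 1 peak of Mir17hg, a noncoding RNA with no 3' UTR, so the 2 shares are not fully alike. The difference was not tested. The genes differed in this: all peaks of Ago2 and Ago3 lay in the 3' UTR, those of Drosha were split between coding sequence and introns, and Dgcr8 had peaks of every kind but the 5' UTR and noncoding exon.

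**Figure D2:**
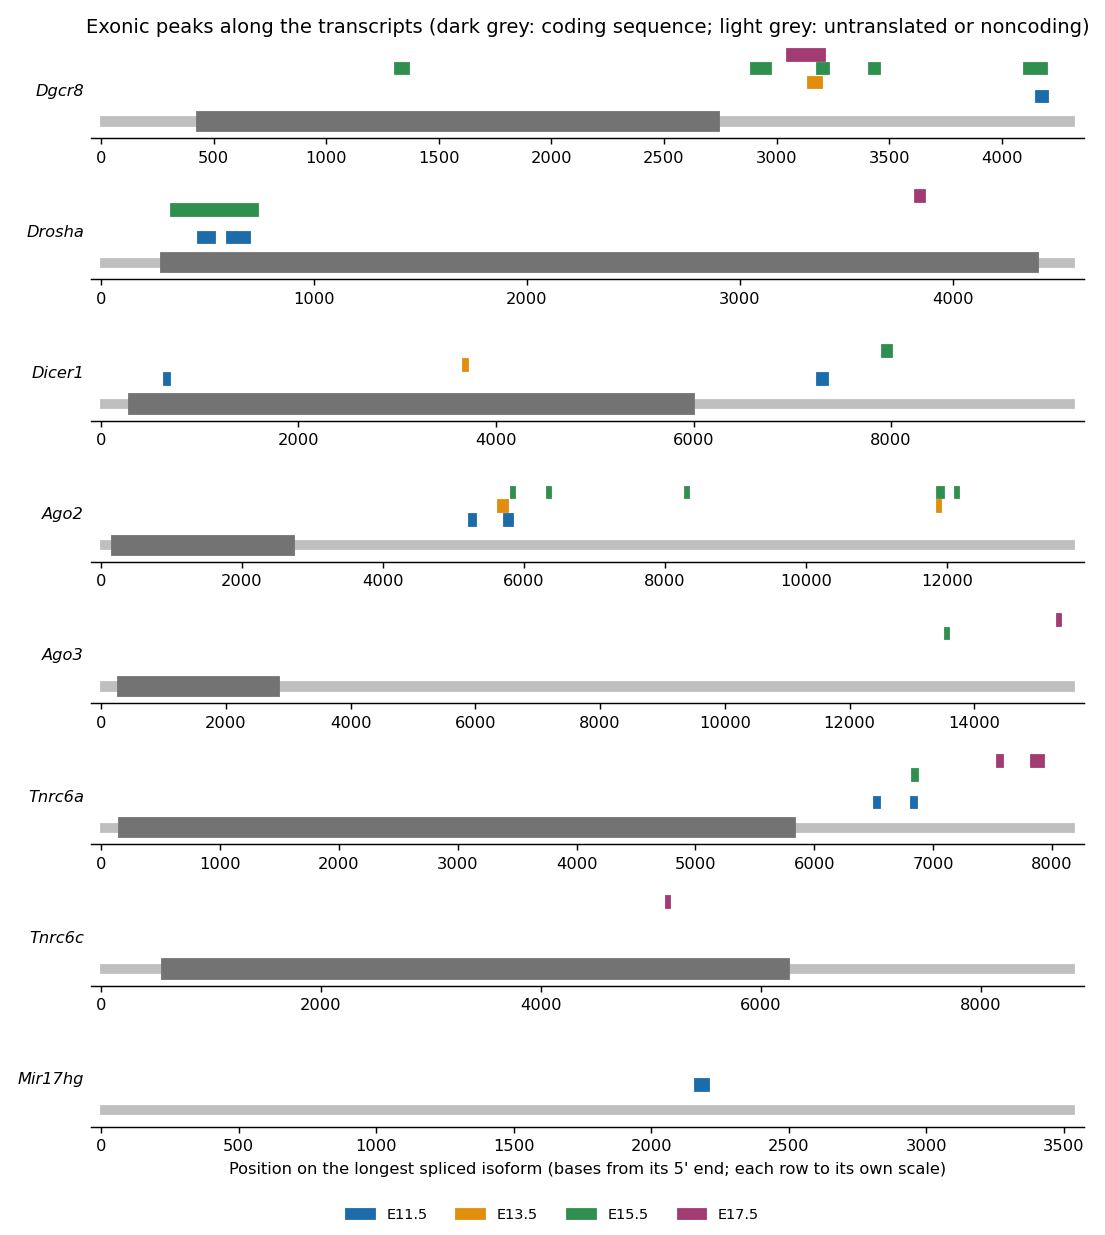
Peaks whose midpoint lies in an exon of the longest isoform, drawn along that spliced transcript in bases from its 5' end (each row to its own scale, the narrowest peaks widened to stay visible), with colour for the day. Ago2, Ago3 and Tnrc6a carry their peaks in the light grey 3' UTR, Drosha in the dark grey coding sequence, and Dgcr8 in the 3' UTR with 1 peak at E15.5 in the coding sequence.

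Dgcr8 (ENSMUSG00000022718.12, chr16:18253948-18289246, mm10, minus strand) encodes the RNA-binding partner of DROSHA. Its longest coding isoform has 14 exons and 4320 bases, of which 1574 are 3' UTR. On every day at least 1 peak lay in that 3' UTR, and 7 of the 12 peaks did so, with midpoints 184 to 1432 bases after the stop codon. At E11.5 the 3' UTR peak (chr16:18254066-18254115) held rank 3972. At E13.5 the peak chr16:18255068-18255126 held rank 275, and at E17.5 the peak chr16:18255056-18255223 held rank 1079. At E15.5 there were 4, the highest ranked at chr16:18255295-18255382 (rank 332) and chr16:18254068-18254169 (rank 583), with the others at ranks 3277 and 4138. The highest-ranked 3' UTR peak thus stood low in the list of E11.5 and high in those of E13.5 and E15.5, but at different places. The E11.5 peak lay 1432 bases after the stop codon and the E13.5 peak 425 bases after it. At E15.5 the peak that overlapped the E13.5 peak held rank 4138, and the one that overlapped the E11.5 peak held rank 583. A predicted gene on the same strand, Gm49776, runs across this end of Dgcr8, but no base of these 7 peaks lay in its exons.

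Peaks of different days fell on the same bases of the Dgcr8 3' UTR in 4 day pairs. The stretch chr16:18255068-18255087 (20 bases) lay under the peaks of E13.5, E15.5 and E17.5, and the whole 59-base peak of E13.5 lay inside the peak of E17.5. Near the 3' end of the transcript, 48 bases were shared by the peaks of E11.5 and E15.5, with the middle of the E11.5 peak 142 bases from the end. The sequences under these shared positions are shown because they are where the lists of different days met. They are written 5' to 3' on the transcript (minus strand of mm10), and the last 2 are cut to the middle 30 bases of the stretch that only those days share.

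Dgcr8 3' UTR, E13.5, E15.5 and E17.5, chr16:18255068-18255087: agccactgagacttggtcag

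Dgcr8 3' UTR, E13.5 and E17.5, chr16:18255092-18255121: caggtagcccctttgctatggttctttctg

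Dgcr8 3' UTR, E11.5 and E15.5, chr16:18254077-18254106: tcctggtctccagtgccctccctgtctctt

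The stretch shared by 3 days has a GC content of 55.0%, and the piece near the transcript's end 60.0%.

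**Figure D3:**
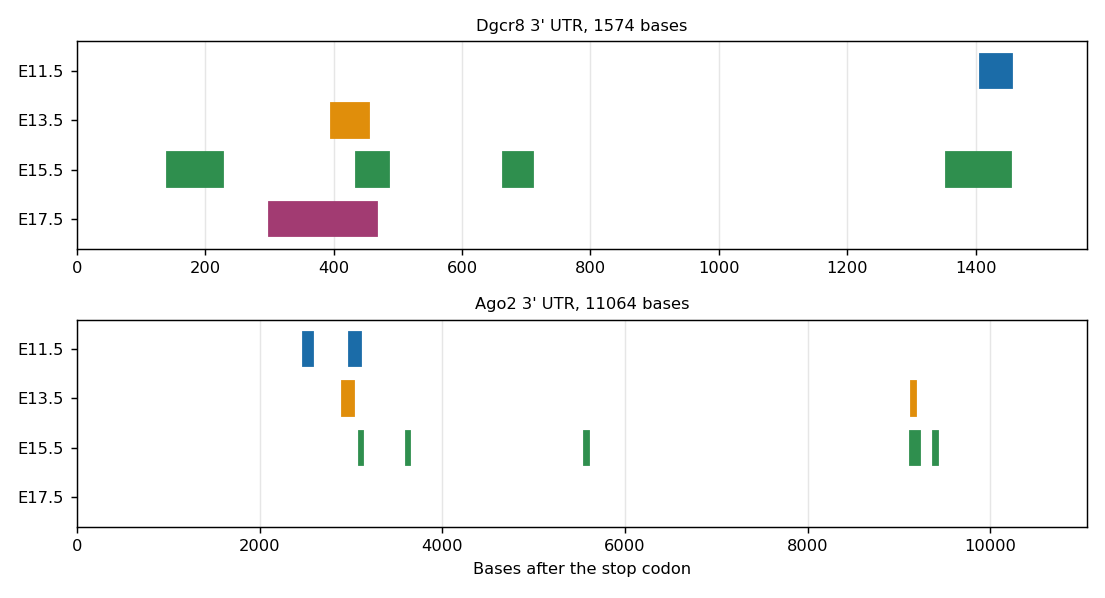
Peaks in the 3' UTRs of Dgcr8 (top) and Ago2 (bottom) in bases after the stop codon, 1 row per day, drawn to scale. In Dgcr8 the peaks of E13.5, E15.5 and E17.5 meet about 450 bases after the stop codon and those of E11.5 and E15.5 near the end. Ago2 has peaks between 2531 and 3624 bases, a lone peak of E15.5 at 5576 bases, peaks between 9157 and 9402 bases, and none at E17.5.

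The highest-ranked Dgcr8 peaks at E11.5 were of another kind. A run of 4 lay over intron 11 (chr16:18258322-18259548, 1227 bases), at ranks 179, 203, 228 and 315, and together they covered 825 of its bases (67.2%). The peak at rank 179 (chr16:18259130-18259579, with an authors' p of 2.23e-05) spanned 450 bases, of which 31 were in the exon before the intron. The peak at rank 203 (chr16:18258281-18258388) had 41 of its 108 bases in the exon after it, which are also exonic in Gm49776, and the other 2 were wholly intronic. When a peak had to have at least 50% of its bases in exons, the best Dgcr8 rank at E11.5 went from 179 to 3972. Its high rank on that day thus came from the edges of a mostly intronic run. Whether the RNA was unspliced Dgcr8 transcript or another product of that region was not tested. No peak of a later day lay over intron 11.

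At E15.5 Dgcr8 also had a peak in its coding sequence, in exon 4 (chr16:18280695-18280753, rank 5287), over codons 295 to 314. The 5' part of the Dgcr8 transcript is known for hairpins that the Microprocessor itself can cut, which lowers the level of its own messenger RNA. The annotation places hairpins of microRNA genes there, both in exon 2: Mir1306 (chr16:18284239-18284317) in the coding sequence and Gm24572 (chr16:18284550-18284637) in the 5' UTR, which matched mmu-miR-3618 in RefSeq. No listed peak lay over either hairpin on any day. The nearest was the exon 4 peak of E15.5, at 3486 bases from Mir1306 and 3797 from Gm24572 along the genome. The mature products are given with the seed, bases 2 to 8, in capitals, from RefSeq (GRCm38.p6).

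mmu-miR-1306-5p: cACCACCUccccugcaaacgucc

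mmu-miR-1306-3p: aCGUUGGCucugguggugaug

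mmu-miR-3618-5p: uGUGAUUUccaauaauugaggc

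mmu-miR-3618-3p: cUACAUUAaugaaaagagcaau

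The 4 seeds differ from each other and from the seeds of the Mir17hg products shown with that gene.

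Over the 4 days, the ranks of Dgcr8 were most like those of Capzb, an actin-capping gene, among 388 other protein-coding genes with an exonic peak on every day. Likeness was the Euclidean distance between log10 ranks of the strongest exonic peak per day, 0.380 for Capzb (ranks 94, 374, 515 and 1384 from E11.5 to E17.5). Atn1, which encodes atrophin 1, came next at 0.540 (ranks 390, 108, 426 and 1158), together with Gm45234, a gene model that has the same ranks as Atn1. Dgcr8 itself had ranks 179, 275, 332 and 1079. The likeness rests in part on rank 179 at E11.5, from a peak with 31 of its 450 bases in an exon. Where 50% or more of a peak must be exonic, that rank is 3972. With 4 points each, this is a description of the lists only.

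Drosha (ENSMUSG00000022191.16, chr15:12824815-12935291, plus strand) encodes the nuclease of the Microprocessor. It had no peak at E13.5 and none in its 3' UTR, which is 168 bases long in its longest coding isoform. Of its 6 exonic peaks, the 2 of E11.5 and 1 of the 2 of E15.5 lay in exon 4. The others lay in exon 30 or reached an exon from intron 15 or 26. At E11.5 the peaks chr15:12833990-12834067 (rank 1477) and chr15:12834125-12834232 (rank 1446) covered codons 60 to 86 and 105 to 141. At E15.5 a single peak of 408 bases (chr15:12833863-12834270, rank 5064) covered codons 18 to 153 and held both peaks of E11.5 entirely. This is the part of the message for the amino-terminal end of DROSHA, a region rich in proline and, farther on, in arginine and serine, ahead of the catalytic domains. The peaks of E11.5 are printed whole, in capitals because every base also lay under the peak of E15.5.

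Drosha exon 4, E11.5, chr15:12833990-12834067: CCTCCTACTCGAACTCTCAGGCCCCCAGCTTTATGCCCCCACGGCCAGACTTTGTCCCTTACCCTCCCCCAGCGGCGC

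Drosha exon 4, E11.5, chr15:12834125-12834232: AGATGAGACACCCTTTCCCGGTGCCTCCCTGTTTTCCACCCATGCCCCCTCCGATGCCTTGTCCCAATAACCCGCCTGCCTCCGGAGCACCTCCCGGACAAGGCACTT

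With GC contents of 65.4% and 62.0%, these were the most GC-rich of the members' 31 peaks of at most 300 bases within 1 exon. A further coding peak lay at E17.5 in exon 30 (chr15:12924079-12924126, rank 4610), over codons 1182 to 1198, with the sequence shown here to set its lower GC content, 54.2%, beside the exon 4 peaks.

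Drosha exon 30, E17.5: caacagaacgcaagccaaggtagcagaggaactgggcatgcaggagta

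The other Drosha peaks filled introns. At E15.5 a peak of 11011 bases (chr15:12867643-12878653, rank 4376) covered 10983 of the 10987 bases of intron 15, with 28 bases in the exon before it. At E17.5 the peaks chr15:12907395-12911367 (3973 bases, rank 1456) and chr15:12911403-12912520 (1118 bases, rank 1486) covered 5081 of the 5116 bases of intron 26 (99.3%). The second of these reached 10 bases into the next exon. Both introns were thus marked nearly from splice site to splice site, each on 1 day only, as intron 11 of Dgcr8 was marked in part at E11.5. Among Drosha peaks that touched an exon, the best rank at E17.5 was 1486 and at E15.5 4376, and when at least 50% of a peak had to be exonic these became 4610 and 5064.

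**Figure D4:**
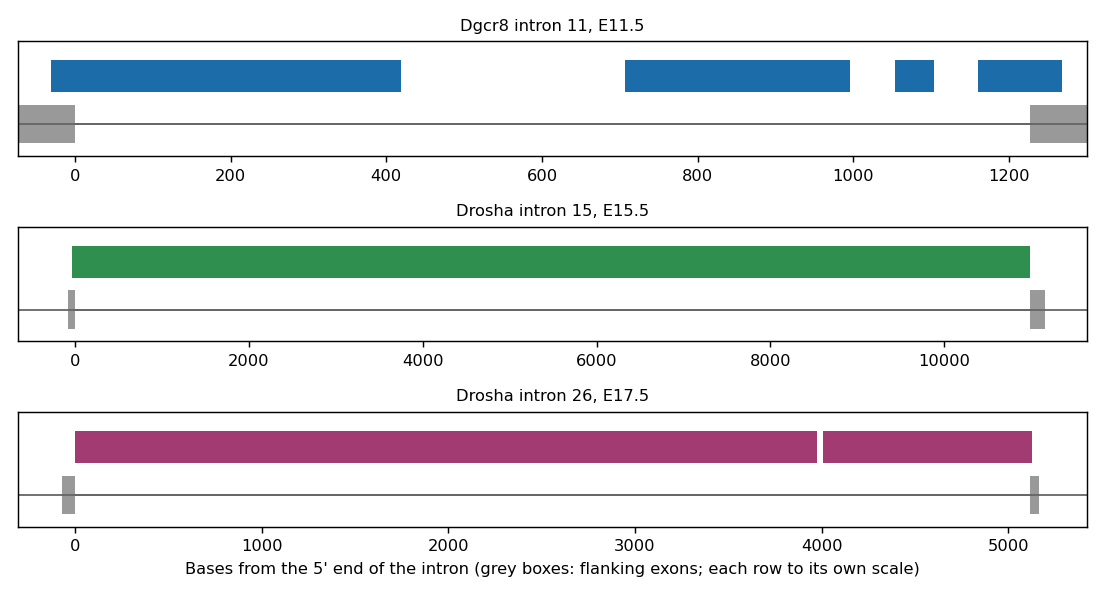
The introns of Dgcr8 and Drosha covered over more than 50% of their length on 1 day, in bases from the intron's 5' end (each row to its own scale), with the flanking exons as grey boxes and the listed peaks as coloured bars. The bars of Drosha span introns 15 and 26 almost from end to end (99.3% of intron 26), and the 4 bars of Dgcr8 cover 67.2% of intron 11.

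Dicer1 (ENSMUSG00000041415.10, chr12:104687742-104751952, minus strand) encodes the nuclease that cuts precursor hairpins into mature duplexes. Its 5 peaks were spread over the gene, on E11.5, E13.5 and E15.5, and no base was shared between days. The highest ranked was at E13.5 in exon 21 (chr12:104702988-104703035, rank 427), over codons 1129 to 1145. At E11.5 a 3' UTR peak (chr12:104690230-104690347, rank 1726) lay 1305 bases after the stop codon. On the same day a peak at the edge of exon 4 (chr12:104730119-104730190, rank 5939) had 58 of 72 bases in the exon, and a peak of 98 bases lay inside intron 19 (rank 4561). At E15.5 the 3' UTR peak chr12:104689583-104689689, 1957 bases after the stop codon, held rank 9407 of 10265. Dicer1 was thus listed by a coding peak near the top of the list at E13.5 and by a 3' UTR peak near the end of the list at E15.5. The peak of E13.5 is printed since it is the strongest of the gene.

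Dicer1 exon 21, E13.5: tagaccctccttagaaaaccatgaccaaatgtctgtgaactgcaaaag

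It has a GC content of 41.7% and a predicted minimum free energy of -2.3 kcal/mol over 48 bases.

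Ago2 (ENSMUSG00000036698.11, chr15:73095844-73184935, minus strand) encodes the argonaute protein that can cut its target RNA. All of its 9 peaks lay in the 3' UTR, which is 11064 bases long in the longest isoform. They fell into 3 stretches, taking a gap of over 1000 bases as a break. Between 2531 and 3624 bases after the stop codon there were 5 peaks, from E11.5, E13.5 and E15.5. A lone peak of E15.5 lay at 5576 bases, and 3 peaks of E13.5 and E15.5 lay between 9157 and 9402 bases. The strongest was chr15:73104328-73104426 at E11.5 (rank 78, with an authors' p of 8.12e-06). Its deposited signal, a positive value per peak whose scaling is not stated, stood at percentile 32.5 of its strand list, so it was high by p and not by signal. The other peak of E11.5 held rank 2864, those of E13.5 ranks 1865 and 2905, and the 5 of E15.5 ranks from 2382 to 8854. At E17.5 there was no Ago2 peak.

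Peaks of different days met at 3 places in this 3' UTR. The peaks chr15:73103799-73103925 (E11.5) and chr15:73103869-73104005 (E13.5) shared 57 bases, and the first also shared 22 bases with chr15:73103771-73103820 (E15.5). In the far stretch the peak chr15:73097726-73097777 (E13.5) lay wholly inside chr15:73097683-73097792 (E15.5). The rank 78 peak shared no base with any other day. Its middle 30 bases are printed with those of the overlaps.

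Ago2 3' UTR, E11.5 rank 78, chr15:73104362-73104391: ccatttacatgtctgatggtgcagagctca

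Ago2 3' UTR, E11.5 and E13.5, chr15:73103882-73103911: gtgtgcaccatgcagcaggtccctccctcc

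Ago2 3' UTR, E11.5 and E15.5, chr15:73103799-73103820: gcccttagtgatactagcaaaa

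Ago2 3' UTR, E13.5 and E15.5, chr15:73097737-73097766: ccatacaagcagccatctaactgctagagt

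Ago3 (ENSMUSG00000028842.15, chr4:126331704-126429556, minus strand) had 1 peak at E15.5 and 1 at E17.5, both far down a 3' UTR of 12742 bases. The peak of E15.5 (chr4:126334738-126334785, rank 1151) lay 10713 bases after the stop codon. The peak of E17.5 (chr4:126332946-126332993, rank 5432) lay 12505 bases after it and 237 bases from the transcript's end, and its authors' q of 0.00996 was just under the ceiling of 0.01 that all listed peaks share. Ago1, which lies next to Ago3 on the same chromosome and strand (chr4:126435012-126468583) and has 8120 exonic bases, had no peak. The 3 argonautes therefore ranged from none to 9 peaks. Exonic bases were 14031 in Ago2 and 16571 in Ago3, so the gene with the most peaks was not the one with the longest exons.

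Tnrc6a (ENSMUSG00000052707.8, chr7:123123885-123195296, plus strand) encodes a GW182 protein, which links argonaute to the deadenylases. It had no peak at E13.5 and 2 on each of the other days. The ranks were 2525 and 4697 at E11.5, 7738 and 8144 at E15.5, and 4104 and 4393 at E17.5, so none was near the top of its list. The 5 exonic midpoints lay 691 to 2039 bases after the stop codon of the longest isoform. The sixth peak (chr7:123187297-123187384) had 32 of 88 bases in an exon and its midpoint in intron 18. The peaks chr7:123193926-123193973 (E11.5) and chr7:123193936-123193984 (E15.5) shared 38 bases, of which the middle 30 are printed. Other isoforms read through this stretch as coding sequence, so its class depends on the isoform.

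Tnrc6a 3' UTR, E11.5 and E15.5, chr7:123193940-123193969: ctgatactacgtattgctctgttcaacatt

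The peaks of E17.5 (chr7:123194651-123194700 and chr7:123194935-123195046) lay farther along, 621 and 306 bases from the transcript's end, and shared no base with the earlier days.

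Tnrc6c (ENSMUSG00000025571.13, chr11:117654289-117763439, plus strand) was listed at E17.5 only. A peak of 50 bases lay inside intron 5 (chr11:117726260-117726309, rank 3648). Another lay across the end of exon 16 (chr11:117753120-117753169, rank 6030 of 6341), with 25 of its 50 bases in the exon. Tnrc6b (chr15:80711313-80941085), with 23677 exonic bases the longest of the members, had no peak. Its 3' UTR holds the hairpin of Mir5113, which also had none.

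Mir17hg (ENSMUSG00000089726.2, chr14:115042879-115046727, plus strand) is the noncoding transcript from which the miR-17-92 cluster is cut, a group of microRNAs that promotes growth and is active in dividing progenitors. Its 6 hairpins, Mir17, Mir18, Mir19a, Mir20a, Mir19b-1 and Mir92-1, lie in exon 2 between chr14:115043671 and chr14:115044506. Its only peak was at E11.5, 50 bases long (chr14:115045351-115045400), also in exon 2. It held rank 18 of 6530, which is the top 0.276% of the day, with an authors' p of 1.43e-06 and q of 0.00141. Its deposited signal stood at percentile 25.8 of its strand list, so here too the rank by p and the signal differed.

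The peak lay downstream of the whole cluster. The last hairpin, Mir92-1, ended 845 bases before it, and the first, Mir17, ended 1597 bases before it. No hairpin of the cluster had a listed peak on any day. The peak is printed as the listed part of the transcript, and beside it 1 mature microRNA from each of the 6 hairpins, the arm by which each family is usually known. The other arms are left out. Seeds, bases 2 to 8, are in capitals. The microRNA sequences are from RefSeq (GRCm38.p6), where 9 of the 10 hairpins inside the members were found, and Gm47288 in exon 6 of Drosha was not.

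Mir17hg peak, E11.5: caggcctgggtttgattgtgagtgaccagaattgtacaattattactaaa

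mmu-miR-17-5p: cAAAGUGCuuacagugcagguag

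mmu-miR-20a-5p: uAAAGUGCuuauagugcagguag

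mmu-miR-18a-5p: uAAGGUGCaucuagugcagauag

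mmu-miR-19a-3p: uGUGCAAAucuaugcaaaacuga

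mmu-miR-19b-3p: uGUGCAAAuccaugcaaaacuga

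mmu-miR-92a-3p: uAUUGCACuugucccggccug

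The seed AAAGUGC is shared by miR-17-5p and miR-20a-5p, and GUGCAAA by miR-19a-3p and miR-19b-3p, while miR-18a-5p and miR-92a-3p have seeds of their own. The peak itself has a GC content of 38.0% and a predicted minimum free energy of -7.1 kcal/mol. Over all 2202 annotated microRNA hairpins, 28 (1.27%) shared at least 1 base with a listed peak on their strand on any day.

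Across the members, 10 pairs of peaks from different days shared bases: 4 in Dgcr8, 3 in Ago2, 2 in Drosha and 1 in Tnrc6a. They took in 15 of the 44 peaks, all of them exonic. Of the pairs, 8 were in 3' UTRs and 2 in the coding exon 4 of Drosha, and 8 included E15.5, the day with the longest list. No intronic peak met a peak of another day.

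Sequence and predicted folding were read for the 31 exonic peaks of at most 300 bases that lay within 1 exon, properties that the choice of genes did not use directly. Their median GC content was 47.1%, beside 50% in 13096 such peaks of other protein-coding genes, and ran from 30% in Tnrc6a to 65.4% in Drosha. The median minimum free energy was -0.175 kcal/mol per base, beside -0.195, where a lower value means a more stable predicted fold. The members' peaks were shorter, with a median of 52 bases beside 68, and the part of width in these differences was not tested. In 3' UTRs alone the medians were 46.6% and -0.175 in 25 peaks, beside 47.8% and -0.186 in 8501. These lie within the quartiles of the other genes, -0.248 and -0.129 per base in 3' UTRs.

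Within the set, 7 of the 8 Dgcr8 peaks lay below the median energy of the other genes. Several of these peaks share bases between days, so they are not 8 separate sequences. The 3' UTR peak of E15.5 near the transcript's end had -0.307 kcal/mol per base, that of E11.5 at the same place -0.294, and those of E13.5 and E17.5, 425 and 383 bases after the stop codon, -0.271 and -0.268. Another Dgcr8 peak of E15.5 (chr16:18254812-18254859) stood apart at -0.069. In Tnrc6a the peaks at the position shared by E11.5 and E15.5 had -0.054 and -0.045, and the Dicer1 peak of E13.5 had -0.048. Over the 31 peaks the energy ran from -0.307 to -0.045, within the range of the other genes, which was -0.651 to 0. Peaks at positions shared between days lay near both ends of the members' range.

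**Figure D5:**
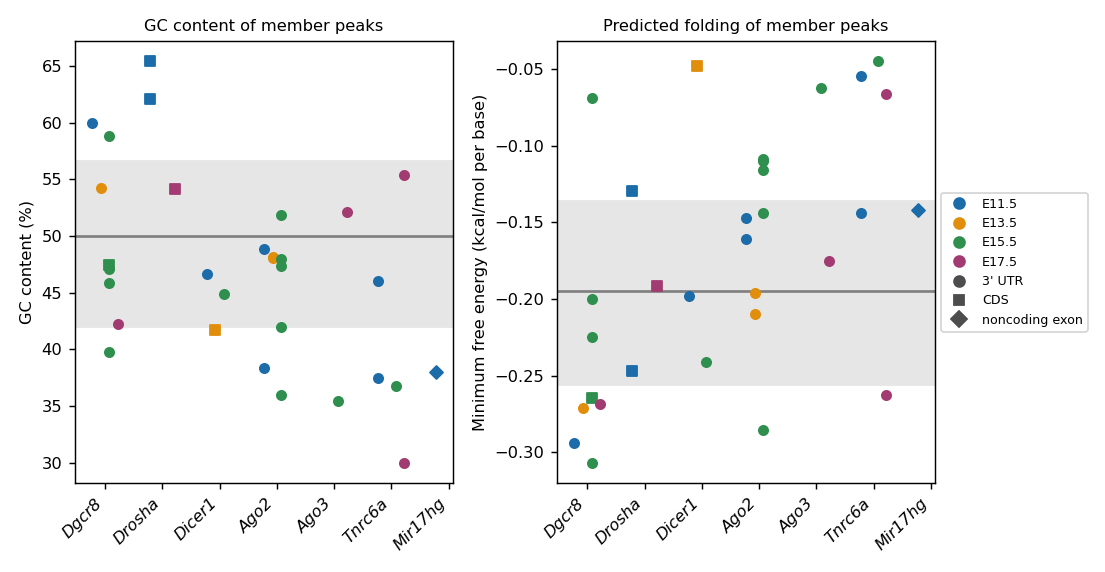
GC content (left, percent) and minimum free energy predicted by RNAfold (right, kcal/mol per base) of the 31 members' peaks within 1 exon, by gene, with colour for the day and symbol for the part. The line and band are the median and quartiles of 13096 peaks of other protein-coding genes (50% and -0.195); the Drosha peaks of E11.5 lie highest in GC and most Dgcr8 peaks lie below the line in energy.

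The partners of these proteins in the same pathway were read from lists of 55 other genes, all found in the annotation. Of these, 38 had an exonic peak on at least 1 day, beside 30.1% of all protein-coding genes and 41.4% of the long ones. On all 4 days 3 had one, beside 1.77% and 2.48%. E11.5 listed 17 of them (9.09% of all genes and 13.2% of long ones), E13.5 listed 23 (11.8% and 16%), E15.5 listed 28 (19.9% and 27.6%) and E17.5 listed 14 (13.6% and 18%). These lists were drawn up with earlier results known, so nothing is read from the distance to those shares, and the counts of the smaller groups are to be set beside the same 30.1% and 41.4%. Among 9 genes of the Microprocessor and of export, 7 had a peak, and the helicase gene Ddx17, whose product works with DROSHA, held rank 147 at E17.5 with a 3' UTR peak. Among 7 genes of dicing and tailing, 6 had a peak. Prkra, which encodes the DICER1 partner PACT, had one on all 4 days, at ranks 6156, 2111, 2155 and 344. Its peak at E11.5 stood near the end of the list and that of E17.5 near the top.

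Among 14 genes of argonaute loading and its cofactors, 6 had a peak, beside 30.1% of all protein-coding genes and 41.4% of the long ones. None of the 14 had one at E11.5, when 9.09% of all protein-coding genes and 13.2% of the long ones did. With so few genes nothing is read from that absence. Hsp90ab1, a chaperone gene that serves the loading of small RNAs, held rank 145 at E13.5 in its 3' UTR. Ago4, the argonaute outside the set, had exonic peaks at E15.5 only, the strongest at rank 2822. The deadenylation genes, which act after GW182, had peaks in 10 of 13. Cnot3 had an exonic peak on all 4 days (ranks 2598, 1038, 677 and 933). At E13.5 and E17.5 these Cnot3 peaks had their midpoint in an intron. Pabpc1, the gene of the poly(A)-binding protein, was also listed on all 4 days, with 23 exonic peaks and ranks 103, 1072, 189 and 3147. Pabpc1 has processed copies elsewhere in the genome, so its reads may be shared with them. Cnot6 held rank 122 at E11.5. Of 12 genes of decapping, decay and translational repression, 9 had a peak, and Eif4e2, a cap-binding protein gene, held rank 199 at E13.5.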

How the data were processed

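STAU2 RIP and input libraries of mouse cortex (3 each per day, 4 days) stand behind 8 peak lists, per the labels. Cufflinks 2.2.1, bedtools 2.17.0, TopHat2 2.0.9 and TopHat appear in the submitters' processing notes with no role, as does the build mm10. The peak caller is not given in the sources used here, nor is its test. The authors deposited 4 values per peak without column names: a score (not used), a signal (given for 2 peaks as a percentile), a p-value and a q-value below 0.01. The deposited p-value served only to rank peaks within a day over both strands. Depth is unknown, and no read counts were used.

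The strand of each list was checked on peaks over exactly 1 annotated gene, of which 94.1% to 97.4% matched the gene's strand. Gene models were GENCODE vM21 (GRCm38, the assembly of mm10), and transcript sequences came from the same release. A peak's part was read at its midpoint over all isoforms with 3' UTR taken before CDS, then 5' UTR, then noncoding exon and last intron, and positions and codons are those of the longest coding isoform. Minimum free energies were computed with ViennaRNA 2.7.2, other steps with Python 3.11.15, numpy 2.4.6, scipy 1.17.1 and matplotlib 3.10.9, and the part assignment was tested on simulated data. The members, the pathway lists and the list of tissue genes were chosen with earlier results of these data known. All 10 members are named. Other genes of the lists are named where they had an exonic peak on all 4 days or a rank within the first 200, and for the gene with peaks on all 4 days the 3 genes most alike in rank are named. Ago4 and the tissue genes without a peak were named after their values were seen. Alternatives were the stronger 50% of peaks, equal list lengths, no peaks over 5000 bases, 50% of a peak in exons, the longest isoform, and the part with the most bases.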

Additional observations from a re-analysis of the deposited data

How the results depend on the processing

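Over 10 results, 43 alternatives were run, and 40 left the count within 1.5 times its value or the 3' UTR share inside its interval (62.5% to 73.5%). The 3 others came from the stronger 50% of each day's peaks: the peaks over the members fell from 16 to 9 at E15.5 and from 9 to 3 at E17.5, and the members with an exonic peak from 5 to 2 at E17.5; fewer peaks enter by construction. At E15.5 that setting and equal list lengths each left 4 of 6 members with an exonic peak. Dgcr8 remained the 1 member with an exonic peak on all 4 days under every alternative tried, but at E11.5 by different peaks. In the stronger 50% these were the mostly intronic peaks at ranks 179 and 203. With 50% of a peak in exons it was the 3' UTR peak at rank 3972, which stood at 60.8% of the list. No paired analysis was possible because the lists pool the libraries of a day and give no value per replicate, and leaving out each replicate was not possible for the same reason. Depth is unknown, so a missing peak does not show that a transcript was unbound.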

Other observations

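Outside the members, hairpins of microRNA genes were listed under both narrow and wide peaks. The 28 hairpins under a peak formed 33 pairs of a hairpin and a peak, counted over days, and in 14 pairs the peak was wider than 1000 bases and in 14 at most 300. Over the days, 4 hairpins were under a peak on more than 1 of them. Mir5125, in an intron of the splicing-related gene Srrm2, was under a peak at E11.5, E13.5 and E15.5 (ranks 5200, 2395 and 3256), with peak widths of 102, 1215 and 1163 bases. Mir342, in an intron of Evl, was under a peak of 24924 bases at E11.5 (rank 5882) and of 24900 bases at E13.5 (rank 2054). Mir6960, in an intron of Troap, was listed at E13.5 (rank 289) and E15.5 (rank 8178). Gm49346, in the translation factor gene Eif4a2, shared 15 bases with a peak at E13.5 (rank 3289) and 32 at E15.5 (rank 6954). By rank, Gm25361 in an intron of Ankrd52 stood highest, under a peak of 6260 bases at E11.5 (rank 150).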
